A study of Rattus norvegicus with 102 samples.

Results

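The 9 genes described here encode proteins of the myelin sheath, or proteins and enzymes of the mature oligodendrocytes that make it, and were followed across 3 subfields of the rat hippocampus. They were the rows whose gene symbol was Mbp, Mog, Mag, Mobp, Cnp, Cldn11, Mal, Ugt8 or Ermn, which were 9 of the 26284 genes listed, each found once and each protein coding. In the order of their roles below they were Mbp (ENSRNOG00000016516, chromosome 18), Mobp (ENSRNOG00000018700, chromosome 8), Mag (ENSRNOG00000021023, chromosome 1), Mog (ENSRNOG00000000775, chromosome 20), Cldn11 (ENSRNOG00000010263, chromosome 2), Mal (ENSRNOG00000015445, chromosome 3), Cnp (ENSRNOG00000017496, chromosome 10), Ugt8 (ENSRNOG00000009345, chromosome 2) and Ermn (ENSRNOG00000021472, chromosome 3). The tables give no start or end positions.

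Myelin is the stack of tightly apposed membrane that an oligodendrocyte wraps around axons in the brain, and it speeds the conduction of nerve impulses. The sheath is held together by a few abundant proteins, such as myelin basic protein on its cytoplasmic face, and is rich in galactolipids. In the hippocampus many of the myelinated fibres run in the alveus, the fimbria and the perforant path, and few run in the granule cell layer of the dentate gyrus. Oligodendrocytes arise from precursor cells that still divide in the adult brain, and the precursors express other genes than the mature cells do.

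RNA had been taken from CA1, CA3 and the dentate gyrus (DG) of 34 male Fisher 344 rats (spelled Fischer 344 in the study's methods). Each table held 1 library per rat and subfield. The groups were 10 young rats at 5 to 6 months of age and, at 17 to 22 months, 12 aged unimpaired and 12 aged impaired rats. All rats had been trained in a water maze, and the class of an aged rat rests on its performance there. The labels name no drug, diet or altered gene in any group. According to the study's methods the subfields of a single hippocampus were separated by hand under cooling, DG was teased off along the hippocampal fissure, and CA2 and the subiculum were not isolated, so each library holds all cell types of a tissue block. Poly-A RNA was sequenced once on an Illumina instrument and once, from the same rats, on an Ion Proton instrument, which makes the second table a technical repeat.

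Values are normalised reads of the Illumina table, which are reads divided by a size factor of the library, unless another table is named. Log2 changes were taken on the log2(value + 1) scale with their SE, and errors of mean levels are SD. A subfield difference was called when the Benjamini-Hochberg adjusted p-value of limma was under 0.05 on each platform with 1 sign. Levels are not compared between genes, since gene lengths were not used here.

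Mature myelin genes are driven by the transcription factors SOX10, OLIG2 and MYRF, and short motifs known for these factors were looked for in RefSeq promoter windows of 250 bases before to 50 bases after the start of transcription (assembly GRCr8). Windows matched 7 of the 9 genes by symbol, with 8 windows in all. The MYRF motif CTGGCAC, read on both strands, lay in the windows of Cnp, Mag and Mal and in 4.75% of the 33469 windows of all genes. The 250 bases upstream of these 3 genes are shown because they hold that motif, and capitals mark the letters of the searched motifs as they read on the strand of the gene. In Cnp the capitals mark the SOX10 motif ACAAAG, then an E-box known to bind OLIG2, CAGCTG, then the MYRF motif. In Mag they mark the reverse complement of the SOX10 motif, CTTTGT, then the MYRF motif. In Mal they mark the reverse complement of the MYRF motif, GTGCCAG.

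Cnp promoter, chr10:86011254-86011503, plus strand: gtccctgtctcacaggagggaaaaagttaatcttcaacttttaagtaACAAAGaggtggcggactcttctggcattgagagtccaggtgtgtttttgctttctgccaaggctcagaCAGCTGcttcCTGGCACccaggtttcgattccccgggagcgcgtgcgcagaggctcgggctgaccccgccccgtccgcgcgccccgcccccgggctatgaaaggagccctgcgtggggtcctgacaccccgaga
Mag promoter, chr1:95291045-95291294, minus strand: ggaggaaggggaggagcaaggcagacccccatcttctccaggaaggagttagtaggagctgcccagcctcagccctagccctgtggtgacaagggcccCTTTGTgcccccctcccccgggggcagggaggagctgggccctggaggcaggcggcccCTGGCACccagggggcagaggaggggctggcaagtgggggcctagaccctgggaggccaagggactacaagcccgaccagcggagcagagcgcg
Mal promoter, chr3:135341424-135341673, minus strand: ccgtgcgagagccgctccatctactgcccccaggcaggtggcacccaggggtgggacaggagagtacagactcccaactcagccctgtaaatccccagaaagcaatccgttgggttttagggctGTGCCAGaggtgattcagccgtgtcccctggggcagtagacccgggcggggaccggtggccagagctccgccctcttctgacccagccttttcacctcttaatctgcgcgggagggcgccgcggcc

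The first letter of the MYRF motif in these sequences was 124 bases before the start in Cnp, 94 in Mag and 126 in Mal, the last on the opposite strand. The SOX10 motif ACAAAG lay in the windows of Cnp, Mag, Mbp and Mobp and in 18.8% of all windows, and the other SOX10 motif ACAATG lay in Mbp and in 13.2% of all windows. The E-box CAGCTG lay in Cnp and Mbp (15.1% of all windows), the E-box CAGATG in Mbp (16.6%), and the second MYRF motif CTGGTAC in Cldn11 (2.16%). The TATA box motif TATAAA was found in 0 of the 8 windows and in 14.2% of all windows. These matches are a description of the letters, and binding of a factor was not measured.

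Illumina libraries held 3.25 to 42.8 M reads on genes (median 10.7 M) and Ion Proton libraries 4.47 to 21.4 M (median 9.74 M). The shallowest Illumina value of any of the 9 genes rested on 199 reads (Ugt8), and no library was at or under the floor of 3 reads for any of them. Marker genes of the 3 subfields placed 12 libraries nearer to another subfield than to the one on their label on both platforms (8 CA3, 3 DG and 1 CA1 by label). The rats carry numbers in 2 ranges, 18 rats below 9000 and 16 rats from 9000 up, and 11 of these 12 libraries came from 9 rats of the higher range. The series' design text gives 2 sites with the same numbers of young and aged rats as these ranges, but the labels tie no rat to a site. The ranges are called the lower-numbered rats (5 young, 6 aged unimpaired, 7 aged impaired) and the higher-numbered rats (5, 6 and 5), and the subfield results of the 9 genes are given over all rats and within each range. In the higher-numbered rats CA1 and CA3 were less distinct, since the 5 CA1 markers tested differed between them by a median log2 of 0.43 with 1 called, against 2.34 and 5 called in the lower-numbered rats. Of 7 CA3 markers, 1 was called higher and 3 lower in CA3 than in DG of the higher-numbered rats (median -0.32). In the lower-numbered rats 4 were called higher and 0 lower (median 0.34). For CA1 over CA3 their medians were -0.02 and -1.19 in the higher-numbered and lower-numbered rats. Of 6 dentate granule cell markers, 5 were called lower in CA3 than in DG in each range.

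Over all 34 rats, each of the 9 genes was lower in DG than in CA1 and than in CA3, and none was called between CA1 and CA3. Mbp, whose product compacts the cytoplasmic faces of the sheath, ran from 37803 to 165161 with a median of 68472 in CA1, from 29943 to 197176 with a median of 74687 in CA3 and from 22087 to 109737 with a median of 38989 in DG (n = 34 each). The ranges overlapped, but 33 of 34 CA1 libraries and 32 of 34 CA3 libraries lay above the DG median. The log2 change of Mbp was 0.87 ± 0.14 for CA1 against DG (adjusted p = 2.9e-07) and 0.94 ± 0.14 for CA3 against DG (adjusted p = 3.3e-08). In bulk tissue, fewer oligodendrocytes and less RNA per oligodendrocyte cannot be told apart.

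Against DG, 9 of 9 genes were called higher in CA1, where 13.1% of the 14179 genes tested were called higher, and 9 of 9 in CA3, where 13.9% were. For CA1 against DG the changes ranged from 0.63 (Mog, the myelin oligodendrocyte glycoprotein of the outermost lamella) to 0.87 (Mbp), with a median of 0.73 and adjusted p-values up to 1.2e-05. For CA3 against DG they ranged from 0.74 (Cnp) to 0.94 (Cldn11 and Mbp), with a median of 0.90 and adjusted p-values up to 2.1e-07. The median change of all genes tested was 0.00 and 0.01 in the same comparisons. In the Ion Proton table the same 9 genes passed, with adjusted p-values up to 0.0071 in CA1 against DG. Between CA1 and CA3, 0 of 9 genes were called, where 14.1% of all genes were, and 0 of 9 had an unadjusted p under 0.05 against 6182 of 14179 genes. All 9 point estimates were nonetheless below 0, from -0.07 in Mbp to -0.21 in Cldn11, and the 95% interval of Cldn11 ran from -0.49 to 0.08. Without the 12 libraries nearest to another subfield, 9 of 9 genes were again called higher in CA1 than in DG (14% of all genes) and in CA3 than in DG (15.6%). In that fit 2 (Mag at -0.32 and Cldn11 at -0.39) were called lower in CA1 than in CA3, where 9.96% of all genes were. The 8 CA3 libraries left out all came from higher-numbered rats, so the 2 number ranges had unequal shares in CA1 and CA3 there. The part of that in these 2 calls was not tested.

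**Figure D1:**
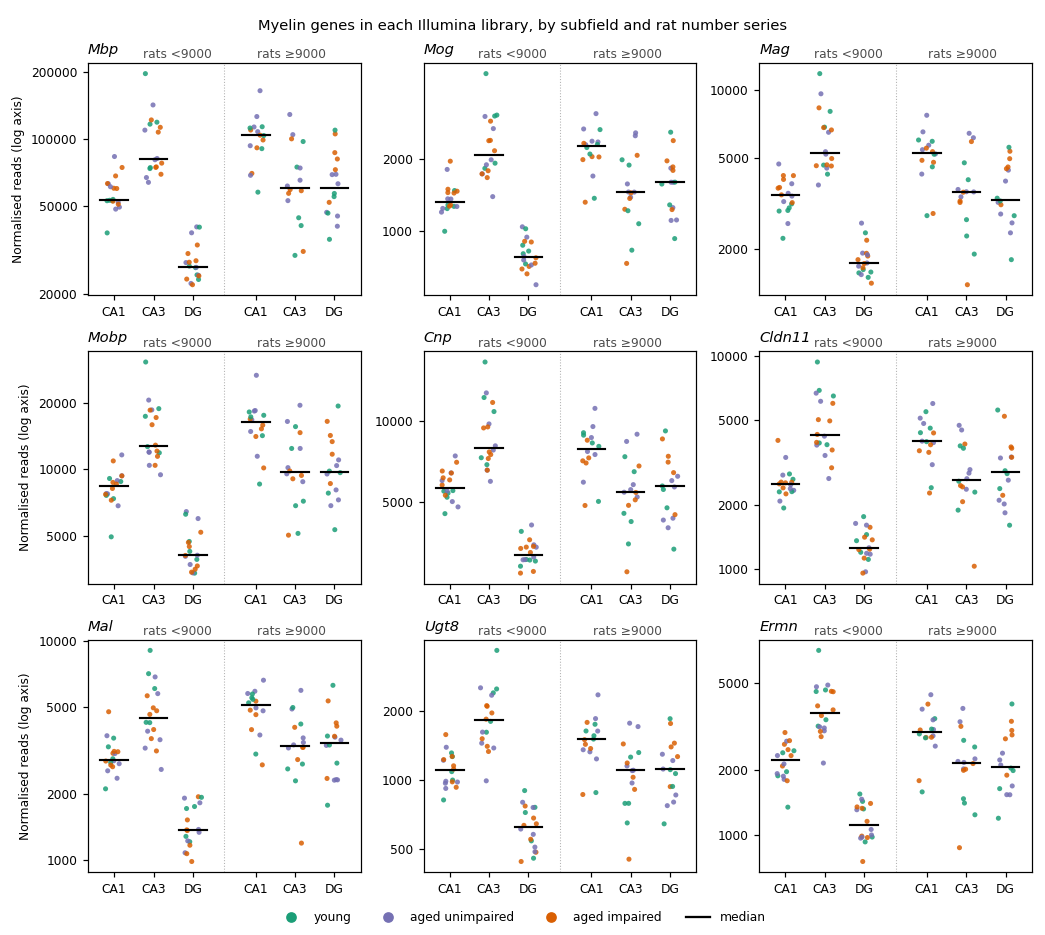
Normalised Illumina reads (log axis) of each of the 9 genes in every library, by subfield, with the 18 rats numbered below 9000 on the left and the 16 rats numbered 9000 and up on the right of each panel. Points are libraries coloured by group and bars are medians, and in every panel the median order is CA3, CA1, DG from high to low on the left, while on the right CA1 has the highest median.

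The pooled result joined contrary patterns in the 2 number ranges. In the lower-numbered rats CA3 stood highest, CA1 between and DG lowest for all 9 genes, whereas in the higher-numbered rats CA1 stood highest and CA3 and DG lay near each other. The difference of CA1 from CA3 was itself different between the ranges for 9 of 9 genes, by 1.10 (Cnp) to 1.43 (Mobp) on the log2 scale (higher-numbered minus lower-numbered rats), where 13.7% of all genes differed. That of CA3 from DG was different for 9 of 9, by -1.49 (Cnp) to -1.92 (Cldn11), where 16.8% of all genes differed. That of CA1 from DG was called different for 0 of 9 genes (0.106% of all), and the estimates ran from -0.32 to -0.52, lower in the higher-numbered rats. Without the 12 libraries nearest to another subfield these counts were 8 (10.4% of all genes), 9 (14.5%) and 0 (0.247%). The call lost was that of Ermn, whose difference between the ranges went from 1.30 to 1.17 in the Illumina table (adjusted p = 1.4e-06) and from 0.91 to 0.90 in the Ion Proton table, where the limma adjusted p went from 0.029 to 0.085. Number range and anything else that differed between the ranges, such as site or dissection, cannot be told apart.

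Mbp and Mobp, the myelin-associated oligodendrocyte basic protein, act in the compaction of the sheath. Median levels of Mbp in the lower-numbered rats, with the range over 18 rats, were 53257 (37803 to 83468) in CA1, 81254 (63860.2 to 197176) in CA3 and 26621 (22087 to 40233) in DG. No CA3 library was as low as the highest DG library, and 17 of 18 CA1 libraries were above it. Here and for the genes below, the share of all genes without such overlap was not counted. The log2 changes of Mbp were -0.72 for CA1 over CA3, 1.03 for CA1 over DG and 1.75 for CA3 over DG, with SE of 0.11 each. In the 16 higher-numbered rats its medians were 103955 (57688 to 165161) in CA1, 60349.8 (29943 to 129068) in CA3 and 59926 (35369.5 to 109737) in DG, and 6 of 16 CA1 libraries were above the highest DG library and 1 above the highest CA3 library. The changes there were 0.66, 0.69 and 0.02 in the same order (SE 0.17), and CA1 exceeded CA3 in 15 of 16 rats and DG in 13 of 16. Mobp had medians of 8383 (4957 to 11608) in CA1, 12747 (9446 to 30466) in CA3 and 4090.2 (3400.5 to 6444) in DG in the lower-numbered rats, and CA3 did not overlap DG. Over the 16 higher-numbered rats its medians were 16267 (8575 to 26538) in CA1, 9682 (5044 to 19437) in CA3 and 9733 (5339 to 19286) in DG. Its changes were -0.81 for CA1 over CA3, 0.93 for CA1 over DG and 1.74 for CA3 over DG in the former and 0.62, 0.62 and -0.0027 in the latter. Mbp and Mobp were called higher in CA1 than in CA3 in the higher-numbered rats, with adjusted p-values of 0.0059 and 0.0082. Both calls were lost without the libraries nearest to another subfield.

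Mag and Mog lie on the surface of the sheath, Mag on the inner lamella facing the axon and Mog on the outermost one. Mag had medians of 3445 (2237.3 to 4730.1) in CA1, 5288 (3828 to 11753) in CA3 and 1740.4 (1424 to 2607) in DG in the lower-numbered rats. In the other 16 rats its medians were 5295 (2811 to 7725) in CA1, 3565 (1402 to 6442) in CA3 and 3305 (1805 to 5596) in DG, with all 3 subfields overlapping. The changes of Mag were -0.79 for CA1 over CA3, 0.92 for CA1 over DG and 1.72 for CA3 over DG in the lower-numbered rats, and in every one of the 18 rats Mag was lower in CA1 than in CA3. In the higher-numbered rats they were 0.54, 0.52 and -0.02, and Mag was called higher in CA1 than in CA3 (adjusted p = 0.023). Without the libraries nearest to another subfield this call was lost. Mog had medians of 1320.2 (997 to 1951) in CA1, 2067 (1389 to 4514) in CA3 and 777 (597 to 1040.3) in DG in the lower-numbered rats and of 2254 (1317 to 3077) in CA1, 1446 (733 to 2559) in CA3 and 1594 (929 to 2576) in DG in the higher-numbered rats. Its CA3 and DG libraries did not overlap in the former and overlapped in the latter. Mog changed by -0.71 for CA1 over CA3, 0.78 for CA1 over DG and 1.48 for CA3 over DG in the lower-numbered rats. Among the higher-numbered rats its changes were 0.54, 0.46 and -0.08, and the difference between CA1 and CA3 passed in the Illumina table (adjusted p = 0.0078) but not in the Ion Proton table (0.11).

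Cldn11, the claudin of the tight junctions between myelin lamellae, and Mal, a proteolipid that takes part in sorting proteins to the sheath, showed the same order in the lower-numbered rats. In the higher-numbered rats their medians ran CA1, DG, CA3 from high to low. Cldn11 had medians of 2505 (1939 to 4023) in CA1, 4251 (2665 to 9380.5) in CA3 and 1252 (959.9 to 1767) in DG in the lower-numbered rats, where no DG library reached the lowest of CA1 or CA3. Over the 16 higher-numbered rats its medians were 3979.7 (2279 to 5992) in CA1, 2625 (1034 to 4734) in CA3 and 2855 (1610.0 to 5585) in DG. Cldn11 had the largest of the 9 differences between CA3 and DG in the lower-numbered rats, at 1.84 ± 0.11 (adjusted p = 1.1e-21), and one of -0.08 ± 0.16 in the higher-numbered rats (adjusted p = 0.72). Mal had medians of 2873 (2119 to 4754) in CA1, 4439 (2596 to 9045) in CA3 and 1373 (989 to 1950.1) in DG in the lower-numbered rats and of 5086 (2724 to 6617) in CA1, 3317 (1199 to 5948) in CA3 and 3442 (1784 to 6272) in DG in the higher-numbered rats. Its DG libraries were separate from both others in the former and overlapped both in the latter. The changes of Mal were -0.63 for CA1 over CA3, 1.06 for CA1 over DG and 1.70 for CA3 over DG in the lower-numbered rats and 0.52, 0.54 and 0.02 in the higher-numbered rats.

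Cnp and Ugt8 encode enzymes. Cnp is the cyclic nucleotide phosphodiesterase of non-compact myelin, and Ugt8 makes galactosylceramide, a main lipid of the sheath. Cnp had medians of 5648 (4528 to 7418) in CA1, 7945 (5969 to 16568) in CA3 and 3185 (2722 to 4109) in DG in the lower-numbered rats, where DG lay wholly below CA1 and CA3. In the other 16 rats its medians were 7877 (4855 to 11143) in CA1, 5433 (2753 to 8933) in CA3 and 5713 (3342 to 9188) in DG. Its changes were -0.61 for CA1 over CA3, 0.83 for CA1 over DG and 1.44 for CA3 over DG in the former and 0.49, 0.44 and -0.05 in the latter. Ugt8 had medians of 1099 (817 to 1572) in CA1, 1814 (989 to 3652) in CA3 and 622 (441 to 897) in DG in the lower-numbered rats. In the higher-numbered rats its medians were 1498 (863 to 2339.6) in CA1, 1098 (451 to 1762) in CA3 and 1109 (643 to 1843) in DG, with overlap between all 3. Its changes were -0.73 for CA1 over CA3, 0.84 for CA1 over DG and 1.57 for CA3 over DG in the lower-numbered rats and 0.48, 0.40 and -0.09 in the higher-numbered rats. Of the CA1 against DG changes in the higher-numbered rats, that of Cnp was called and that of Ugt8 was not, since in the Ion Proton table Ugt8 changed by 0.14 (adjusted p = 0.58).

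Ermn, a cytoskeletal protein that appears late in oligodendrocyte maturation, had medians of 2229.5 (1349 to 2971) in CA1, 3666 (2152 to 7086) in CA3 and 1113 (759 to 1550.4) in DG in the lower-numbered rats and of 2990.4 (1586 to 4433) in CA1, 2153 (879 to 3835) in CA3 and 2073 (1200.1 to 4019.8) in DG in the higher-numbered rats. Its CA3 and DG libraries did not overlap in the former. Its changes were -0.79 for CA1 over CA3, 0.92 for CA1 over DG and 1.72 for CA3 over DG in the lower-numbered rats and 0.50, 0.45 and -0.06 in the higher-numbered rats. Ermn was the gene on which the platforms matched least, with a correlation of 0.77 between Illumina and Ion Proton values over libraries that share rats and RNA, against 0.88 to 0.98 for the other 8. In the lower-numbered rats its CA1 against CA3 change was -0.79 in the Illumina table (adjusted p = 3.6e-09) and -0.53 in the Ion Proton table (adjusted p = 0.063). With the rat as a block both passed and Ermn was called as well.

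Counted over the 9 genes, 8 were called lower in CA1 than in CA3 in the lower-numbered rats, where 11.8% of 14131 genes were called lower, and 9 with the rat as a block (13.4% of all genes). In the same rats 9 of 9 were called higher in CA1 than in DG (7.81% of all genes) and 9 of 9 higher in CA3 than in DG (12.1% of all genes). The 9 changes had medians of -0.73, 0.92 and 1.72, and each of the 9 genes was higher in CA1 than in DG and in CA3 than in DG in 18 of 18 rats. Among the higher-numbered rats 3 genes (Mbp, Mag and Mobp) were called higher in CA1 than in CA3, where 2.27% of 14215 genes were called higher. That count rested on single rats, since it was 2 to 8 when 1 rat at a time was left out. It was 8 without unimpaired rat R9865 and 5 without R9781, R9869 or R9875. Without the libraries nearest to another subfield it was 0 (median change 0.42 in place of 0.54), when 2.78% of all genes were called higher. That fit left out 8 CA3 libraries, and the part of its smaller size in the loss was not tested. For CA1 against DG, 5 genes (Mbp, Mag, Mobp, Cnp and Cldn11) were called higher, where 10.3% of all genes were, and 4 with the rat as a block, when Cldn11 was lost (11.2% of all genes). This count was 3 to 7 when 1 rat at a time was left out, 7 without impaired rat R9781 and 3 without any of the rats R9780, R9862, R9869 and R9877, and 5 without the libraries nearest to another subfield (12.1% of all genes). For CA3 against DG, 0 of 9 were called, where 21.6% of all genes were, and the estimates ran from -0.09 to 0.02 with SE of 0.13 to 0.17.

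**Figure D2:**
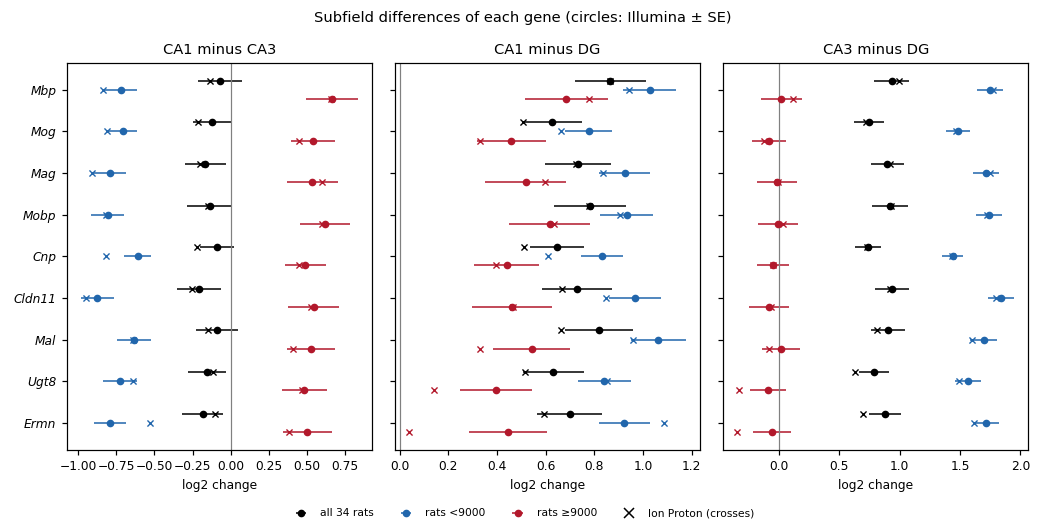
Log2 change of each of the 9 genes between pairs of subfields, as circles with SE from the Illumina table and crosses from the Ion Proton table, over all 34 rats (black), the rats numbered below 9000 (blue) and those numbered 9000 and up (red). For CA1 against CA3 the blue circles lie between -0.87 and -0.61 and the red between 0.48 and 0.66, on opposite sides of 0, and for CA3 against DG the red circles lie within 0.09 of 0.

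As a share of all reads on genes, the 9 genes together took a median of 0.621% in CA1, 0.922% in CA3 and 0.314% in DG of the lower-numbered rats. Over the 16 higher-numbered rats they took 1.16% in CA1, 0.673% in CA3 and 0.682% in DG. The lowest library of all was at 0.265% (DG) and the highest at 2.22% (CA3), both in lower-numbered rats. Between rats of the same subfield and number range the SD of the 9 genes had medians of 0.26 to 0.54 on the log2 scale, while the median gene had 0.16 to 0.25. The spread was widest in CA3 of both ranges, at 0.44 in the lower-numbered and 0.54 in the higher-numbered rats.

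Within a rat the order of the subfields, taken from the mean log2 level of the 9 genes, was CA3, CA1, DG from high to low in 18 of 18 lower-numbered rats. In the 16 higher-numbered rats it was CA1, CA3, DG in 6, CA1, DG, CA3 in 6, DG, CA1, CA3 in 3 and CA3, CA1, DG in 1. The same order was found in all 3 tables for 15 of the 18 and 12 of the 16 rats. In the lower-numbered rats the median difference of the 9 genes, CA1 minus CA3, ran from -1.87 to -0.03 over rats and was below 0 in each. CA1 minus DG ran from 0.34 to 1.56, and CA3 minus DG from 1.13 to 2.32. In the other 16 rats CA1 minus CA3 ran from -0.52 to 1.26 and was above 0 in 15 of 16 rats. CA1 minus DG ran from -1.04 to 1.62 there and was above 0 in 13, and CA3 minus DG ran from -1.93 to 1.35 and was above 0 in 7. By group, CA3 minus DG was above 0 in 2 of 5 young, 4 of 6 aged unimpaired and 1 of 5 aged impaired higher-numbered rats.

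**Figure D3:**
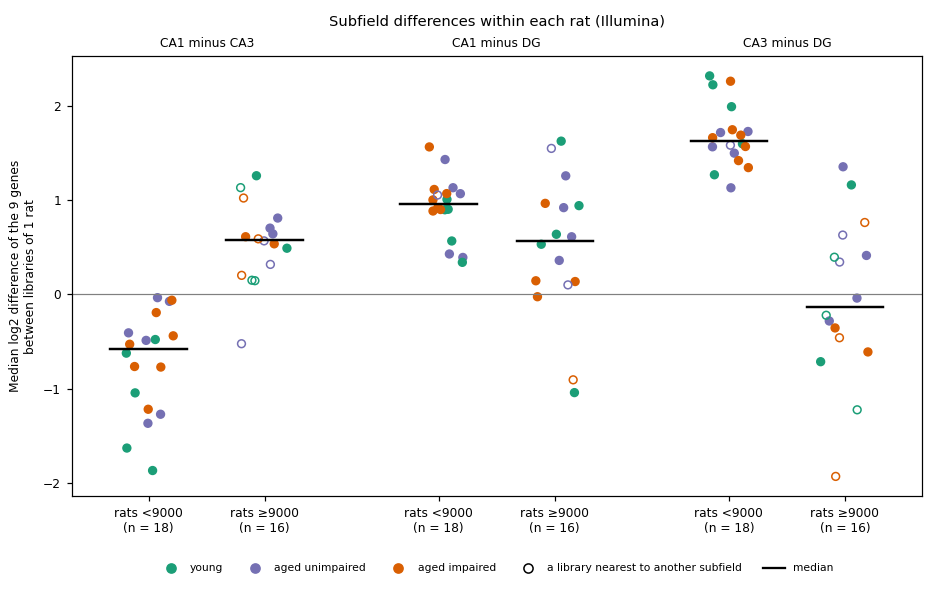
Difference between libraries of the same rat, as the median log2 difference of the 9 genes in the Illumina table, for each pair of subfields and number range (n = 18 and n = 16 rats). Points are rats coloured by group, open where either library was nearest to another subfield by its markers, and bars are medians. CA1 minus CA3 is below 0 in 18 of 18 rats on the left and above 0 in 15 of 16 on the right of its pair.

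The lowest differences of CA3 from DG came from impaired rat R9781 and young rat R9881, both higher-numbered. In rat R9881 the DG library was the highest of the 16 for each of the 9 genes, with 109737 normalised reads of Mbp, while its CA1 library had 57688 and its CA3 library 44231. Its CA1 library was the lowest or second lowest for all 9. In rat R9781 the DG library was the second highest for all 9 (Mbp 105533), while its CA3 library was the lowest for 8 of 9 and the second lowest for Mbp (31193). By subfield markers the CA3 and DG libraries of rat R9781 were each nearest to the other's label, and the CA3 library of rat R9881 was nearest to CA1 while its DG library was nearest to its own label. Without these 2 rats, 5 of 9 genes (Mbp, Mag, Mobp, Cnp and Cldn11) were called higher in CA1 than in CA3 in the other 14 higher-numbered rats, where 1.84% of all genes were, and 0 of 9 were called between CA3 and DG (23.6% of all genes).

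Each rat gave all subfields, so the 9 genes could be followed across libraries of the same rat. Levels of the 9 genes differed between the number ranges, though with overlap, so correlations over rats are given within each range. They were taken on log2 values, with a permutation p (100000 resamples, two-sided) adjusted over 54 relations. In the lower-numbered rats, a rat with more of a myelin gene in CA3 also had more of it in DG, with Pearson's r of 0.62 to 0.74 (9 of 9 with adjusted p under 0.05) and Spearman's rho of 0.46 to 0.80 (7 of 9). Over all 14179 genes with a mean of at least 10 the median r of this pair was 0.23, and 7.79% of them had an r at least as high as the lowest of the 9. Without the 2 rats farthest from the median in CA3, r was 0.24 to 0.64 and 6 of 9 had an unadjusted p under 0.05, so that for Mbp (r = 0.64 with adjusted permutation p = 0.013, then r = 0.35), Mag and Cnp the relation rested on those rats. No relation of CA1 passed, with r of -0.39 to -0.02 to CA3 and 0.04 to 0.42 to DG (0 of 9 each). Over all genes the median r of these pairs was 0.21 and 0.22. For CA1 and CA3, 21.4% of genes had an r at least as low as the weakest of the 9. For CA1 and DG, 72.3% had one at least as high. In the higher-numbered rats CA1 and DG were inversely related, with r of -0.85 to -0.73 (9 of 9) and rho of -0.84 to -0.66 (9 of 9). The median r over all genes was -0.03 there, and 0.882% of genes had an r at least as low as the weakest of the 9. Without the 2 farthest rats r was -0.73 to -0.46 with 7 of 9 at an unadjusted p under 0.05, and over the 7 rats whose libraries all matched their labels it was -0.86 to -0.50. CA1 and CA3 were related with r of 0.48 to 0.67 (5 of 9) and rho of 0.39 to 0.56 (0 of 9), and without the 2 farthest rats r fell to 0.12 to 0.43 with 0 of 9 at p under 0.05, while over the 7 rats whose libraries all matched their labels it was 0.28 to 0.90, and 12.6% of all genes were at or above the lowest r of the 9 (median 0.16). CA3 and DG had r of -0.67 to -0.38 (2 of 9) and rho of -0.72 to -0.44 (3 of 9), also with 0 of 9 after the 2 farthest rats were left out, and r over the 7 rats was -0.85 to -0.22, while 4.75% of all genes lay at or below the weakest r of the 9 (median 0.11). Since the 9 genes are strongly correlated with each other, these counts are not 9 separate observations. The libraries of 1 rat share its dissection, and the part of dissection in these relations was not tested.

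**Figure D4:**
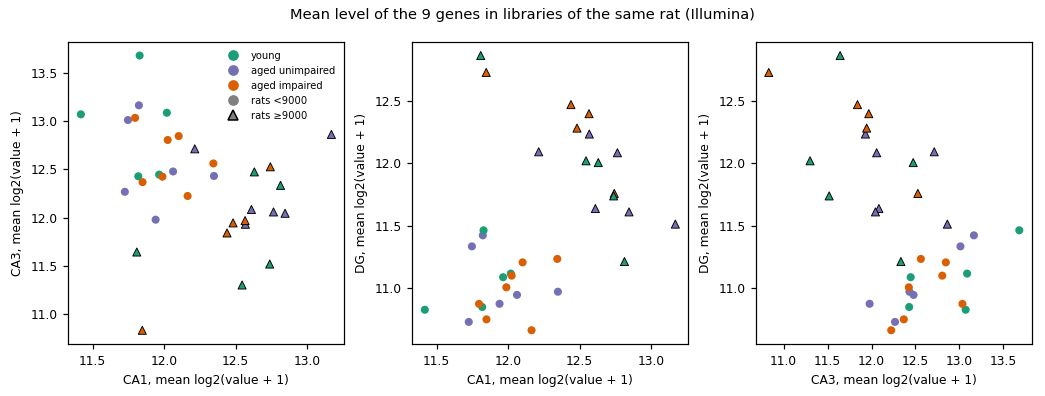
Mean log2(value + 1) of the 9 genes in one subfield against another subfield of the same rat in the Illumina table, with circles for the 18 rats numbered below 9000 and triangles for the 16 numbered 9000 and up, coloured by group. Circles rise together for CA3 and DG, and triangles fall for CA1 and DG.

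The 9 genes moved together from library to library. Within a subfield and number range the median correlation over the 36 pairs of genes was 0.82 to 0.98, and the lowest single pair was Mag and Mal at 0.58 in CA1 of the lower-numbered rats. After the mean of each subfield was taken off, the genes, of 14170, whose Illumina levels followed the mean of the 9 most closely over all libraries included Enpp4 (r = 0.97), Tspan2, Slc44a1, S1pr5, Tmem88b and Klk6 (0.97 each), Npc1 and Rhog (0.96 each) and Nipal4 (0.96). In the Ion Proton table the same correlations were 0.69 (Rhog) to 0.94 (Tmem88b). The libraries share rats and number ranges, and with the mean of each subfield and range taken off the Illumina values were 0.92 (Rhog) to 0.95 (Tspan2). Of 39 other genes of mature oligodendrocytes, 39 had a correlation above 0.5 with the mean of the 9, and 18 of the closest 50 genes came from that list. The share of all 14170 genes above 0.5 is not given here, and these values keep the difference between the number ranges.

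Of a list of 40 other genes of mature oligodendrocytes 39 were tested. Over all rats 35 of 39 were called higher in CA1 than in DG (median 0.64) and 37 of 39 higher in CA3 than in DG (median 0.80), with Enpp2 (1.01) and Opalin (0.89) highest in the former and Hhip (1.12) and Carns1 (1.00) in the latter. Anln, a cytoskeletal scaffold of myelin, was the 1 gene called lower in CA1 than in DG (-0.30), and Anln (-0.41) and Hhip (-0.39) were the 2 called lower in CA1 than in CA3. In the lower-numbered rats 34 of 39 were called lower in CA1 than in CA3, 35 higher in CA1 than in DG and 39 higher in CA3 than in DG (medians -0.66, 0.82 and 1.51). Among the higher-numbered rats 6 were called higher in CA1 than in CA3 and 26 higher in CA1 than in DG (medians 0.48 and 0.47), and 1, Anln (-0.45), was called lower in CA3 than in DG. Of the genes of precursors and of the lineage, 9 of 15 were over all rats called higher in CA1 than in DG (median 0.31) and 13 of 15 in CA3 than in DG (median 0.43), among them the lineage factors Olig2 (0.52 and 0.68) and Olig1 (0.51 and 0.63). Within the lower-numbered rats 4 of these 15 were called lower in CA1 than in CA3, 4 higher in CA1 than in DG and 10 higher in CA3 than in DG (medians -0.19, 0.35 and 0.51). Within the higher-numbered rats 0 were called between CA1 and CA3, 7 were called higher in CA1 than in DG and 5 higher in CA3 than in DG (medians 0.02, 0.25 and 0.26), and the 9 genes had 0 called and a median of -0.05 for CA3 against DG in these rats.

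Markers of other cells moved with the 9 genes in places. Of all genes tested in the lower-numbered rats, 11.8% were called lower and 1357 of 14131 higher in CA1 than in CA3. Against DG 7.81% were called higher in CA1 and 12.1% in CA3. In the higher-numbered rats 10.3% were called higher in CA1 than in DG and 1478 of 14215 genes in CA3 than in DG. Over all rats these shares were 13.1% and 13.9%, and a count such as 1 of 12 or 1 of 11 lies near them. Markers of ependymal cells, which line the ventricles, had a median summed level of 224.5 in CA1, 498 in CA3 and 154.7 in DG of the lower-numbered rats, and 4 of 5 tested were called lower and 1 of 5 higher in CA1 than in CA3, and against DG 4 of 5 were called higher in CA1 and 4 of 5 in CA3. Over the 16 higher-numbered rats the sums were 291.9, 225.9 and 222.7, with 0 of 5 called in each pair of subfields. Choroid plexus markers had median sums of 84.4, 209 and 41.9 in the lower-numbered and 651, 500.3 and 379.7 in the higher-numbered rats. Of the 6 choroid plexus markers tested in the lower-numbered rats 2 were called lower in CA1 than in CA3 (median -1.21), 1 higher in CA1 than in DG (median 0.49) and 2 higher in CA3 than in DG (median 1.73), and of 9 tested in the higher-numbered rats 6 were called higher in CA1 than in DG and 0 in the other pairs. Thalamus and habenula markers had median sums of 919.9, 1056 and 681 in the lower-numbered rats, where 3 of 7 were called lower in CA1 than in CA3, 2 higher in CA1 than in DG and 3 higher in CA3 than in DG. In the higher-numbered rats these sums were 985, 954 and 828, with 0 of 7 called in each pair. Astrocyte markers had median sums of 86258 to 119237 over the subfields and ranges, and over all rats 3 of 12 were called higher in CA1 than in DG and 5 of 12 in CA3 than in DG, with 1 and 1 in the lower-numbered and 5 and 6 in the higher-numbered rats. Of 11 microglia markers 3 were called higher in CA1 and 7 in CA3 than in DG over all rats, with 0 and 3 in the lower-numbered and 3 and 1 in the higher-numbered rats. Of 7 endothelium markers 4 were called higher in CA1 than in DG and 0 in CA3 than in DG over all rats, with 4 and 0 in the lower-numbered and 3 and 1 in the higher-numbered rats. In the lower-numbered rats 4 of the 7 endothelium markers were also called higher in CA1 than in CA3, where the 9 genes were lower. Of the peripheral myelin markers, Ncmap was at 0 in 99 libraries and the list summed to a median of 101 to 165 in each subfield and range. Of 5 tested in the lower-numbered rats 1 was called lower in CA1 than in CA3, 1 higher in CA1 than in DG and 1 higher in CA3 than in DG. Of 4 tested in the higher-numbered rats the counts were 0, 1 and 1. The list median for CA1 over CA3 was 0.83 in the lower-numbered and -0.07 in the higher-numbered rats. The part of these cells and tissues in the results for the 9 genes was not tested.

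To ask whether myelin genes change with age, aged rats (n = 24) were compared with young rats (n = 10) in each subfield, and a gene was called when p was under 0.01 in the Illumina table and the Ion Proton table had a one-sided p under 0.05 for that direction. None of the 9 genes was called in CA1, CA3 or DG, where 0.832%, 0.393% and 1.07% of all genes were. By limma 0 of 9 had an unadjusted p under 0.05 in any subfield, against 873, 471 and 729 of all genes tested, and in the Illumina table alone 48, 0 and 42 of all genes had an adjusted p under 0.05. In CA1 the median level of Mbp, with the range, was 55597 (37803 to 113665) in young, 76083 (48380.0 to 165161) in aged unimpaired and 69152 (50878 to 109864) in aged impaired rats. These ranges overlapped, and the change with age was 0.17 (95% interval -0.21 to 0.54). Mag had the largest estimate in CA1, at 0.22 (95% interval -0.09 to 0.53), with medians of 3101 (2237.3 to 6023) in young, 4502 (2596 to 7725) in aged unimpaired and 4128 (2873 to 5548) in aged impaired rats. In CA3 the estimates ran from -0.20 (Mal) to 0.07 (Mag), and in DG from -0.15 (Mal) to 0.12 (Mag). The widest 95% interval was that of Mobp in DG, at -0.02 (95% interval -0.55 to 0.52). These fits pool both number ranges, and with the range as a covariate the interval of Mobp in DG became 0.04 (95% interval -0.25 to 0.32), while the widest was that of Mbp in CA3, at 0.03 (95% interval -0.37 to 0.42). In those fits 0 of 9 genes were called (1.32% of all genes in CA1, 0.611% in CA3 and 1.38% in DG), the medians were 0.12, -0.08 and 0.01, and the lowest unadjusted p was that of Mag in CA1, at 0.24 (95% interval 0.02 to 0.47) with limma p = 0.034 (adjusted p = 0.50). The median over the 9 genes was 0.09 in CA1, -0.05 in CA3 and -0.02 in DG, beside 0.00, -0.01 and 0.00 over all genes, and in the Ion Proton table it was -0.04, -0.09 and -0.01. When 1 rat at a time was left out it lay between bounds of 0.02 to 0.17 (CA1), -0.16 to 0.09 (CA3) and -0.12 to 0.13 (DG), and the sign of at least 1 of the 9 estimates turned for 13, 17 and 22 of 34 rats. Of the 39 other genes of mature oligodendrocytes 1 was called in CA1, Tf, the iron carrier transferrin, at 0.44 ± 0.16 (limma adjusted p = 0.48), and 0 in CA3 and DG. In CA1 38 of the 39 had estimates above 0, with a median of 0.20 in each poly-A table, and in CA3 and DG 25 and 29 did (medians 0.04 and 0.08), and since these genes follow the mean of the 9 from library to library, they are not separate observations.

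Aged impaired and aged unimpaired rats (n = 12 each) were compared to ask whether these genes differ with spatial memory. None of the 9 was called in CA1, CA3 or DG, where 0.62%, 0.0211% and 0.121% of all genes were, and 0 of 9 had an unadjusted p under 0.05 in any subfield, against 811, 199 and 539 of all genes. All 9 estimates were below 0 in CA1, from -0.19 (Mobp) to -0.04 (Ermn), and in CA3, from -0.19 (Cldn11) to -0.07 (Ermn). In DG all 9 were above 0, from 0.02 (Mal) to 0.16 (Ermn). The 9 genes are strongly correlated, so that their shared sign is not 9 separate observations. The median change was -0.13, -0.14 and 0.08, beside 0.00 over all genes in each subfield. When 1 rat was left out its bounds were -0.19 to -0.05, -0.21 to -0.03 and -0.01 to 0.15 in the same order, and the sign of at least 1 estimate turned for 4, 1 and 8 of 24 rats. Impaired rat R9781, whose CA3 and DG libraries were each nearest to the other's label, is in these fits, and without it the medians were -0.09, -0.03 and -0.01. Without the 12 libraries nearest to another subfield the medians were -0.05, 0.02 and -0.05, so that the signs in CA3 and DG turned, with 6 and 2 of 9 estimates above 0. With the number range as a covariate they were -0.08, -0.18 and 0.17, and 0 of 9 genes were called (0.683%, 0.0492% and 0.478% of all genes). Cldn11 in CA3 had medians of 3817 (1895 to 9380.5) in young, 3622 (2374 to 6701) in aged unimpaired and 3748 (1034 to 6003) in aged impaired rats, and the impaired and unimpaired ranges overlapped. Its change was -0.19 (95% interval -0.66 to 0.28). In DG Mbp had medians of 37751 (23327 to 109737) in young, 40374 (22389 to 69401) in aged unimpaired and 31933 (22087 to 105533) in aged impaired rats, with a change of 0.07 (95% interval -0.49 to 0.63) between the aged groups. Within the 11 aged higher-numbered rats Mobp (0.53, p = 0.0071) and Ermn (0.54, p = 0.0041) were called higher in DG of impaired rats by limma, each with an adjusted p of 0.70, where 0.641% of all genes were called higher, and within the 13 aged lower-numbered rats 0 of 9 were called (0.0359% of all genes). Those 11 rats include impaired rat R9781 and unimpaired rat R9865, whose DG libraries were nearest to another subfield. Without both DG libraries Mobp was called (0.48, limma p = 0.0089, adjusted p = 0.72, 0.406% of all genes called higher) and Ermn was not (0.50, with an Ion Proton p of 0.19), and without rat R9781 alone neither was called (0.43 and 0.47).

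Each aged class was also set against the same 10 young rats, so these comparisons share their controls. For unimpaired against young rats 0 of 9 genes were called in CA1, CA3 and DG (0.607%, 0.386% and 0.621% of all genes), and for impaired against young rats 0 of 9 (1.21%, 0.274% and 0.948%). By limma 0 of 9 had an unadjusted p under 0.05 in any of the 6 comparisons, against 350 to 1128 of all genes. In CA1 Mag changed by 0.28 ± 0.19 in unimpaired and by 0.16 ± 0.16 in impaired rats, and Mal by 0.04 ± 0.20 and -0.09 ± 0.17. Within the lower-numbered rats Mag was called higher in CA1 of impaired than of young rats (0.41, limma p = 4.0e-04, adjusted p = 0.13), where 1.09% of all genes were. Of the 39 other genes, Qdpr (0.37) and Ndrg1 (0.24) were called higher in CA1 of impaired than of young rats. The effects of age and of impairment were called different between subfields for 0 of 9 genes by limma and for 0 of all genes. Unadjusted p-values of the 9 were from 0.34 up. From 50 of 14179 genes (age, CA1 and DG, without the rat block) to 923 of 14186 (impairment, CA1 and CA3, with it) had an unadjusted p under 0.05. These fits held no term for the number range, so the contrary subfield differences of the ranges stay in their SE, which were 0.24 to 0.34 for the 9 genes. Their lack of calls does not show that the effects were alike.

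**Figure D5:**
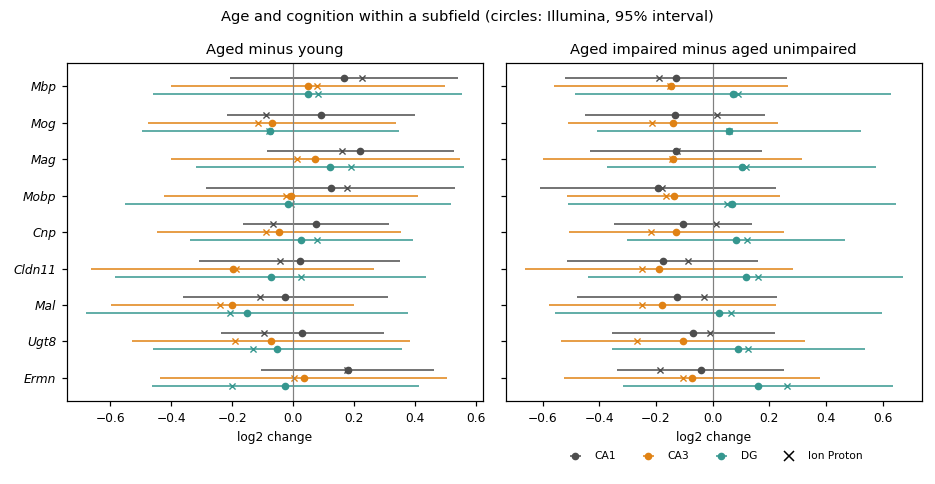
Log2 change of each of the 9 genes with age (aged minus young, 24 against 10 rats) and with impairment (impaired minus unimpaired, 12 against 12 rats) in CA1, CA3 and DG, with 95% intervals from limma in the Illumina table and crosses from the Ion Proton table. Every interval includes 0.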

How the data were processed

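Hippocampal subfields CA1, CA3 and DG of 34 rats were profiled by RNA sequencing, 1 library per rat and subfield in each table. The deposited values are a signal, gene counts that the authors divided by DESeq2 size factors. Divided by the value of a single read in their library, 100.0% of them were whole reads within a tolerance of 0.001. Per the processing notes, Illumina reads were prepared with bcl2fastq 2.17, CutAdapt 1.8.3, STAR 2.5 (rn5), featureCounts 1.4.4 and DESeq2 1.16.1, and Ion Proton reads, per the study's methods, with TopHat2, Bowtie2 and featureCounts, and those methods name another DESeq2 version. The sources name 2 different Illumina kits, so whether counting used strand is unknown, and reads shared with overlapping genes cannot be separated. The library type of another table (WT) is not stated, and it served as an alternative only. Depth was 3.25 to 42.8 M reads (Illumina), 4.47 to 21.4 M (Ion Proton) and 3.54 to 20.6 M (WT).

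Because the values are not counts, limma 3.58.1 (trend, R 4.3.3) on log2(value + 1), for genes with a mean of at least 10, took the place of the DESeq2 test of the study as the main test, fitted over all genes with all 34 rats per subfield comparison and the groups of 1 subfield for age and cognition. Calls used adjusted p under 0.05 in both poly-A tables for subfields, and the thresholds of the study (0.01, then one-sided 0.05) for age and cognition. Each rat gave all 3 subfields, so the libraries are paired by rat, and the fit with the rat as a block was run beside the fit without it. The correlation of same-rat residuals had medians of 0.087, 0.189 and -0.032 for CA1 and CA3, CA1 and DG, and CA3 and DG, against 0.001, -0.013 and -0.006 for other rats. Alternatives were edgeR 4.0.16 and DESeq2 1.42.0 on recovered reads, a pseudocount of 0.1, no filter, quantile normalisation, the Ion Proton table alone, the WT table, the number range as a covariate, the rat block, each number range, and leaving out libraries or rats, of which the fits that join a number range with the block or with left-out libraries or rats were chosen after seeing the data, as were the test of the difference between ranges and the alternatives for same-rat relations. The named genes are the 9 members, at most 6 called genes of each other list per comparison with the largest change, and the 10 genes most like the members, of which 1 is not reported here, and Anln and Hhip were added where a direction held at most 5 calls. Members and lists were chosen with earlier results of these data known. The fits were tested on simulated data. P-values measure the spread between rats, each with 1 library per subfield.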

Additional observations from a re-analysis of the deposited data

Results flagged for a closer look

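In 10 of the 27 groups of young libraries looked at (9 genes in 3 subfields, n = 10 each), 1 library stood farther from the others than Dixon's 95% limit for the range allows, which chance does in about 1 of 20 groups, and the 9 genes are not independent. In DG the library was that of rat R9881 each time, with 109737 for Mbp (next highest 56909), 19286 for Mobp (next highest 9812), 5596 for Mag (next highest 3352), 2576 for Mog (next highest 1596), 5585 for Cldn11 (next highest 2899.8), 6272 for Mal (next highest 3685), 9188 for Cnp (next highest 5737), 1843 for Ugt8 (next highest 1106) and 4019.8 for Ermn (next highest 2039.6) normalised reads. In CA3 the library of rat R2221 held 197176 normalised reads of Mbp, next to 119158. The part of dissection in these values was not tested.

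The subfield differences of the rats numbered 9000 and up and of those below 9000 were themselves called different in both poly-A tables for 9 of 9 genes in CA1 minus CA3 (8 without libraries nearest to another subfield, when Ermn was at 1.17 in the Illumina and 0.90 in the Ion Proton table and the latter missed the threshold) and for 9 of 9 in CA3 minus DG, and for 0 of 9 in CA1 minus DG. For CA1 minus CA3 the log2 differences between the ranges were Mbp 1.39, Mobp 1.43, Mag 1.33, Mog 1.25, Cldn11 1.42, Mal 1.16, Cnp 1.10, Ugt8 1.21, Ermn 1.30. For CA3 minus DG they were Mbp -1.73, Mobp -1.74, Mag -1.73, Mog -1.56, Cldn11 -1.92, Mal -1.68, Cnp -1.49, Ugt8 -1.65, Ermn -1.77. The labels do not say what else differed between the ranges, so a cause cannot be told apart.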

How the results depend on the processing

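The counts over all rats (0 of 9 for CA1 against CA3, 9 of 9 for both other subfields against DG) kept within 1.5 times under edgeR, DESeq2, the other pseudocount, no filter, quantile normalisation, the Ion Proton table alone, the WT table and the number range as a covariate, with any 1 rat left out, and with the replicate block (0, 9 and 9). For CA1 minus CA3 the count was 8 in the rats numbered below 9000 (9 with the replicate block, 8 without libraries nearest to another subfield, and 8 to 9 when leaving out 1 rat). In those numbered 9000 and up it was 3 (3 with the replicate block, 5 without rats R9781 and R9881, 0 without libraries nearest to another subfield, and 2 to 8 when leaving out 1 rat). Over all rats the count was 2 without libraries nearest to another subfield, of which those labelled CA3 all came from the rats numbered 9000 and up. For CA1 minus DG it was 5 in the rats numbered 9000 and up, 4 with the replicate block, 5 without libraries nearest to another subfield and 3 to 7 when leaving out 1 rat. For CA3 minus DG it was 0 in those rats, under each of these alternatives, and the changes turned below 0 with and without the replicate block for Mog (-0.079), Mag (-0.018), Mobp (-0.0027), Cnp (-0.049), Cldn11 (-0.081), Ugt8 (-0.087) and Ermn (-0.056), with a median of -0.049, and for Mog (-0.041) without libraries nearest to another subfield. Impaired minus young in CA1 had 1 call in the rats below 9000 (Mag), and impaired minus unimpaired in DG had 2 in those from 9000 up and 1 without libraries nearest to another subfield. Beyond Ermn and Cldn11 within a range, the replicate block changed no call of the 9 genes. Same-rat relations over all rats, which mix both ranges, numbered 0, 5 and 9 of 9 for CA1 and CA3, CA1 and DG, and CA3 and DG. For CA1 and CA3 they were 1 in the Ion Proton and in the WT table, 9 without rats holding a library nearest to another subfield and 1 without rats over 25 M reads, for CA1 and DG 8 in the WT table and 9 without those rats, and for CA3 and DG 4 without rats over 25 M reads. The causes were not tested.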
